A study of Mus musculus with 8 samples.

Results

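The transcripts of 10 autoantigens of Sjögren's syndrome and autoimmune liver disease were followed in mouse liver. Trim21, Ssb and Trove2 encode the Ro52, La and Ro60 antigens. Sp100, Nup62 and Nup210 encode antigens of nuclear bodies and nuclear pores, and Dlat and Pdhx encode subunits of the mitochondrial pyruvate dehydrogenase complex. Chrm3 and Sptan1 encode the muscarinic M3 receptor and alpha-fodrin. The members were all probes of the arrays whose gene symbol or Entrez gene ID is one of these 10 genes. They came to 18 of the 56605 probes for genes, and 14 of them, from 9 of the 10 genes, were bright enough to be tested. Trove2 is the older symbol of Ro60.

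Liver RNA was hybridised to 8 Agilent arrays in 1 colour, so that the intensity of a probe follows the amount of its transcript. The Tx group held 4 arrays from female NFS/sld mice thymectomised on day 3 after birth and sampled 8 weeks after the operation. The nonTx group held 4 arrays from female NFS/sld mice that kept their thymus. All mice of both groups share the NFS/sld background, which carries sld, a mutation that stops the sublingual glands from maturing. The age of the nonTx mice and any sham operation are not given in the sources used here, and the replicates are called independent without a statement that each is its own animal. P-values therefore measure the spread between these samples, which may be technical. The comparison addresses whether the genes of the antigens that are targeted in Sjögren's syndrome and in autoimmune liver disease are expressed differently in the liver of this model.

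In Sjögren's syndrome, lymphocytes infiltrate the salivary and lacrimal glands, and many patients carry antibodies to Ro52, Ro60 and La. Primary biliary cholangitis, which attacks small bile ducts, can accompany it, and its antibodies bind the E2 subunit of pyruvate dehydrogenase, its E3-binding protein, sp100, and the pore proteins p62 and gp210. Neonatal thymectomy of NFS/sld mice leads to inflammation of the salivary glands, and a fragment of alpha-fodrin was described as an antigen in that model. Most of these transcripts are made in many cell types whether or not antibodies are present, so their levels report expression and not autoimmunity.

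The 8 arrays had between 51.1% and 57.12% of their probes well above background. Values are log2 intensities minus the 75th percentile of the array; that percentile was 330, 249.6, 230 and 225 in Tx replicates 1 to 4 and 302, 276, 289 and 274 in nonTx replicates 1 to 4. All 10 spike-in RNAs were higher in Tx on this scale, by 0.06 to 0.37. The Tx and nonTx arrays occupied separate positions on 1 slide, so that slide position and group cannot be told apart. Hepatocyte markers were bright throughout: all 12 of the list passed the detection filter, and their summed scaled signal ran between 1452100 and 1710100 in Tx and between 1522100 and 1727200 in nonTx. Tx replicate 4 stood apart by transcripts of salivary glands. A probe of Bpifa2, the parotid secretory protein, read 7.29, 35.8, 116 and 79616 in Tx replicates 1 to 4, against 115, 3.01, 24.4 and 163 in nonTx replicates 1 to 4. Values of the autoantigens without that array are given below.

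No autoantigen probe passed the test. In limma's fit over all 30955 tested probes, with Benjamini-Hochberg adjustment, 0 of the 14 autoantigen probes had an adjusted p under 0.05, where 0% of all tested probes did. At an unadjusted p under 0.05 there were 3 of the 14, where 13.2% of all tested probes passed. Their log2 differences, Tx minus nonTx, were between 0.03 and 0.33 in size, with standard errors of 0.08 to 0.21 and adjusted p-values between 0.358 and 0.874. Of the 14 probes, 7 were higher and 7 lower in Tx. By gene, with the brightest tested probe standing for each, 4 were higher and 5 lower, with a median of -0.04, against 0.03 over all 16495 genes tested. Among all probes the count of calls was 0 with the 8 arrays and 188 without Tx replicate 2, and the autoantigens held 0 calls in both fits. Without Tx replicate 4, the array with the high Bpifa2 reading, all 9 autoantigen genes had adjusted p-values between 0.547 and 0.958, and the differences were 0.24 for Sp100, 0.25 for Nup62, 0.14 for Sptan1, 0.07 for Nup210, -0.05 for Ssb and -0.02 for Dlat.

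**Figure D1:**
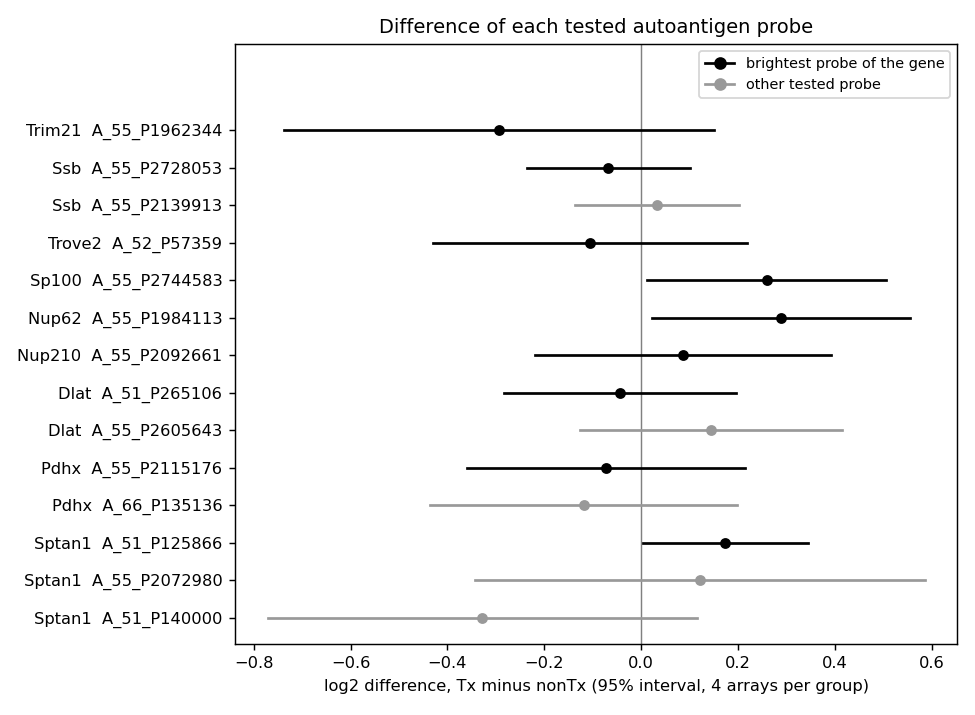
Log2 difference, Tx minus nonTx, of the 14 tested autoantigen probes on the horizontal axis, with 95% intervals from limma (n = 4 arrays per group), in black for the brightest probe of a gene and in grey for its others. Trim21 lies at -0.29 and Nup62 at 0.29. The lower ends of the Sp100, Nup62 and brightest Sptan1 intervals lie just above 0, at 0.01, 0.02 and 0.00, and all other intervals cross 0.

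Trim21 encodes Ro52, a ubiquitin ligase that binds the constant part of antibodies inside cells and is induced by interferons. Its single probe, which matches transcript variant 1, read 265, 379, 224 and 220.2 in Tx replicates 1 to 4, against 325, 301, 431 and 410.4 in nonTx replicates 1 to 4. The readings of Tx replicates 1, 3 and 4 are below every nonTx reading, while Tx replicate 2 lies above nonTx replicates 1 and 2, so the groups overlap. After scaling, Trim21 averaged 0.05 ± 0.39 in Tx and 0.35 ± 0.27 in nonTx (SD, n = 4 each), a log2 difference of -0.29 ± 0.20 (SE; 95% interval -0.74 to 0.15; limma, adjusted p = 0.509). In the authors' deposited table the log2 difference of the same probe is -0.29. Without Tx replicate 2 the difference was -0.48 ± 0.16 (adjusted p = 0.21, limma), without Tx replicate 1 it was -0.17, and without Tx replicate 4 it was -0.27 ± 0.23. Trim21 had the widest spread within groups of the 9 tested genes, with an SD of 0.33, larger than that of 79% of all genes.

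The promoter of Trim21 is shown because this gene and the median of interferon-inducible genes were highest on the same arrays within each group, as described next. The part of interferon in the Trim21 values was not tested. The sequence is from RefSeq (GRCm38.p6) and runs from 250 bases before to 50 bases after the annotated start, on the minus strand at chr7:102565433-102565732. Capitals mark the overlapping pair of matches to the interferon-stimulated response element, searched on both strands as GAAA, any 2 bases, and GAAA.
Trim21 promoter: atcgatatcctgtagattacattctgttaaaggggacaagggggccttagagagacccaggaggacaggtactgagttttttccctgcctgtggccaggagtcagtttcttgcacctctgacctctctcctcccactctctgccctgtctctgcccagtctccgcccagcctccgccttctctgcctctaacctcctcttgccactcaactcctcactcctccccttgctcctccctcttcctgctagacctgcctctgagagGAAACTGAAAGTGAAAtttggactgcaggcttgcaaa
The 2 matches lie between bases 14 and 29 after the start. Such a match was present in 3.99% of the 27025 genes of the RefSeq table, in any promoter of a gene. Of the 28 interferon-inducible genes that had a promoter there, 13 held it. Among the 10 autoantigen genes, 1 held it. None of the 10 held the gamma-activated site, searched as TTC, any 3 bases, and GAA, which 9.55% of all genes held. A match describes these letters and not a bound factor.

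Interferon-inducible genes varied over the same arrays. The deviation of Trim21 from its mean over the 8 arrays was -0.52, 0.40, -0.24 and -0.23 in Tx replicates 1 to 4, against -0.09, -0.08, 0.37 and 0.38 in nonTx replicates 1 to 4. The median deviation of 33 tested interferon-inducible genes was -0.32, 0.45, 0.00 and -0.19 in Tx, against -0.43, -0.08, 0.19 and 0.30 in nonTx. Both were highest in Tx replicate 2 and, within nonTx, in replicates 3 and 4. Their lowest arrays differed, with Trim21 lowest in Tx replicate 1 and the median of the list lowest in nonTx replicate 1. Of the 33 interferon-inducible genes, 27 (81.8%) had their highest Tx value in replicate 2, against 22% of 16483 genes without missing values. This count was made after the values were seen. Of the other tested autoantigens, Trove2 alone was also highest in replicate 2 within Tx and in replicates 3 and 4 within nonTx. Sp100, also induced by interferons, showed neither. The interferon-inducible list as a whole had 16 genes higher and 17 lower in Tx, a median difference of -0.02 and 0 calls.

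**Figure D2:**
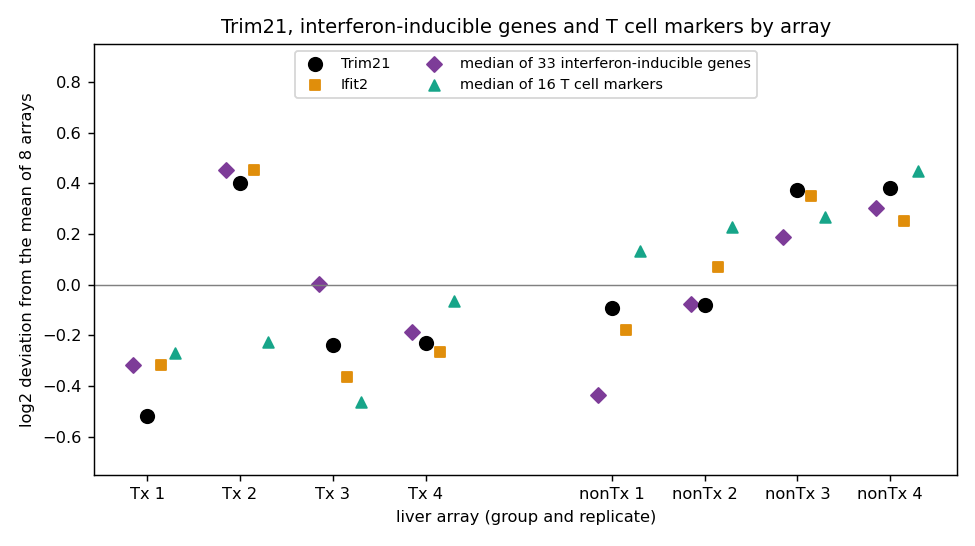
Deviation from the mean of the 8 arrays (log2) for Trim21, the medians of the interferon-inducible and T cell marker lists, and Ifit2. Ifit2 was picked for its likeness to Trim21 on these arrays. The 4 Tx arrays lie left of the 4 nonTx arrays. Trim21 reaches 0.40 in Tx replicate 2 and 0.38 in nonTx replicate 4, and the T cell marker median is below 0 in every Tx array and above 0 in every nonTx array.

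The 5 genes whose centred values were closest to those of Trim21, by the root mean square difference over the 8 arrays among 16483 genes, were Klra4 at 0.11, Gm45951 at 0.11, Ifit2 at 0.11, Gm5860 at 0.12 and H2-T9 at 0.13. The root mean square of Trim21's own deviations was 0.32. Klra4 encodes a receptor of natural killer cells, Ifit2 an interferon-induced antiviral protein and H2-T9 a nonclassical class I molecule. These 5 genes were picked for values close to those of Trim21 on the same arrays, so their likeness follows from that choice. Of the 5, Ifit2 alone was on the interferon-inducible list. The deviation of Ifit2 was -0.32, 0.45, -0.36 and -0.27 in Tx replicates 1 to 4, against -0.18, 0.07, 0.35 and 0.25 in nonTx. Of the 3 of these genes with a promoter in the table, Gm5860 held the response element, while Klra4 and Ifit2 did not. Ifit2 held the gamma-activated site, at -241 to -233 from an annotated start, while Klra4 and Gm5860 did not. The Gm5860 match lies before the start, at -180 to -171, and the Trim21 pair after it, at 14 to 29. The Gm5860 window is on the plus strand at chr4:82065190-82065219 (GRCm38.p6, RefSeq). It is shown beside the window of Trim21 at chr7:102565447-102565476.
Trim21 window: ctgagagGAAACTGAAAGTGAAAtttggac
Gm5860 window: ataatggaagGAAAGGGAAAtttagagagg
Capitals again mark the element, which occurs as an overlapping pair in the Trim21 window and alone in that of Gm5860.

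T cells are among the cells that express Trim21, and most of their markers had lower Tx means, as Trim21 did. Of 16 T cell markers, 12 were lower and 4 higher in Tx, and the median of their log2 differences was -0.53, with 0 calls. With normexp background correction that median was -0.13. With probes required to be well above background on all 8 arrays, 12 of the 16 markers remained, with a median of -0.53. Cd3d, a chain of the T cell receptor complex, differed by -1.17 ± 0.14 (adjusted p = 0.0577, limma). The summed scaled signal of the list ran the other way, between 13452 and 17531 in Tx and between 9672 and 12131 in nonTx. Such a sum follows the brightest genes. The 4 markers with higher Tx means, Cd4, Zap70, Cd247 and Cd3e, were also the brightest of the list. They differed by 0.32, 0.69, 0.34 and 0.13. In Tx replicate 2 the median deviation of the T cell markers was -0.23, where that of Trim21 was 0.40. The part of T cells in the Trim21 values was not tested, and in whole liver, fewer cells of a type and less RNA per cell cannot be told apart.

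Ssb encodes La, which binds the ends of new RNA polymerase III transcripts. Its brightest probe read 3381, 2700.3, 2254 and 2219 in Tx replicates 1 to 4, against 3026, 2956, 3259.5 and 2927 in nonTx replicates 1 to 4. After scaling, the Tx values were 3.36, 3.44, 3.29 and 3.30, and the nonTx values 3.33, 3.42, 3.50 and 3.42. The groups overlap and lie within a narrow band: its SD within groups was 0.07, and 2.44% of all genes had a smaller one. The difference was -0.07 ± 0.08 (95% interval -0.24 to 0.10; adjusted p = 0.69, limma), and a second Ssb probe gave 0.03 ± 0.08 (-0.14 to 0.20).

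Trove2 encodes Ro60, a ring-shaped protein that binds misfolded small RNAs and Y RNAs. Its probe was dimmer, at 63.4, 60.4, 50.6 and 39.1 in Tx replicates 1 to 4, against 61.2, 59.7, 64.7 and 66.4 in nonTx replicates 1 to 4. Before scaling, the lowest readings were those of Tx replicates 3 and 4. After scaling, the Tx values were -2.38, -2.05, -2.18 and -2.52, and the nonTx values -2.30, -2.21, -2.16 and -2.04. Tx replicates 4 and 1 were then the lowest, Tx replicate 3 lay within the nonTx range, and the groups overlap. The difference was -0.11 ± 0.15 (95% interval -0.43 to 0.22; adjusted p = 0.755, limma) and -0.03 ± 0.14 without Tx replicate 4.

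**Figure D3:**
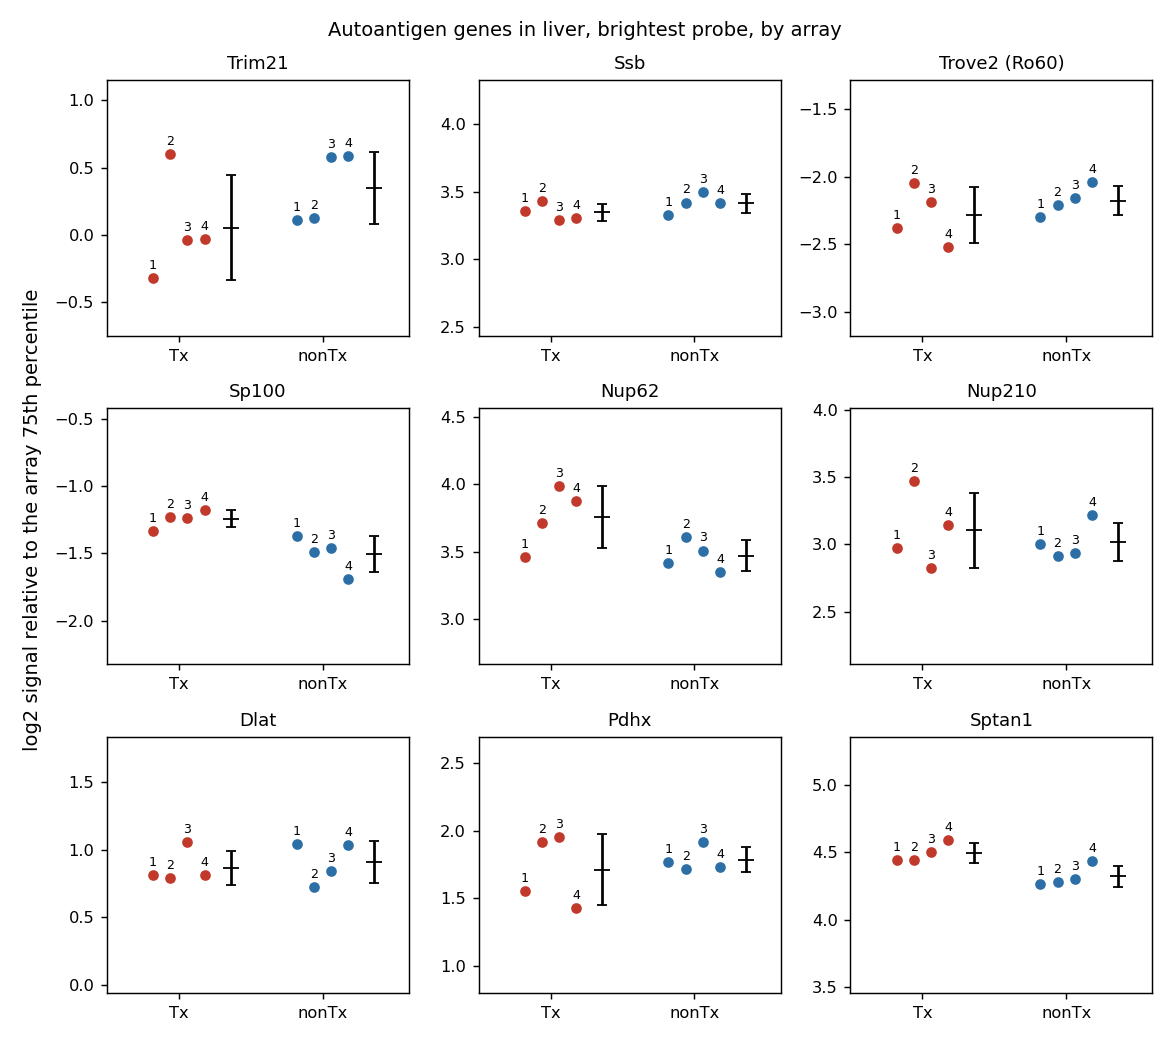
Scaled log2 intensity of the brightest tested probe of each of the 9 tested autoantigen genes, with points numbered by replicate, Tx left of nonTx, and bars for the mean ± SD of each group (n = 4 arrays). Tx and nonTx points overlap in 7 of the 9 genes, and in Sp100 and Sptan1 all 4 Tx points lie above all 4 nonTx points.

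Sp100 encodes a component of PML nuclear bodies that is itself induced by interferons. Its tested probe, on transcript variant 2, read 131, 107, 97.6 and 99.2 in Tx replicates 1 to 4, against 116, 98.2, 105 and 85.0 in nonTx replicates 1 to 4. These readings overlap. After scaling they were -1.33, -1.23, -1.24 and -1.18 in Tx, against -1.37, -1.49, -1.46 and -1.69 in nonTx, so that every Tx value lay above every nonTx value. Among all probes without missing values, 4.47% showed the same separation with Tx higher, 3.39% one with Tx lower and 7.86% either. Of the 14 autoantigen probes, 2 separated with Tx higher and 0 with Tx lower. The difference was 0.26 ± 0.11 (95% interval 0.01 to 0.51; adjusted p = 0.364, limma). Without scaling between arrays, a setting added after the data were seen, it was 0.10. The other Sp100 probe, at 4.43 to 11.8 in Tx and 6.71 to 14.8 in nonTx, stayed in the background on all 8 arrays.

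The genes most like Sp100 by the same measure were Guk1, Pop5, Cops4, Map3k10 and Zswim7, at root mean square differences of 0.04 to 0.05, where Sp100's own deviations came to 0.16. Their differences ran between 0.20 and 0.25, with adjusted p-values of 0.311 to 0.358 (limma). These genes were picked for values close to those of Sp100 on the same arrays, so differences of similar size follow from that choice.

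Nup62 encodes p62, a protein of the central channel of the nuclear pore. Its probe read 3628, 3269, 3649.6 and 3292 in Tx replicates 1 to 4, against 3216, 3367.5, 3288 and 2782 in nonTx replicates 1 to 4. After scaling, 3 of the Tx values were above every nonTx value and Tx replicate 1, at 3.46, lay below nonTx replicates 2 and 3, at 3.61 and 3.51. The difference was 0.29 ± 0.12 (95% interval 0.02 to 0.55; adjusted p = 0.358, limma), and 0.11 with normexp background correction.

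Nup210 encodes gp210, which spans the nuclear membrane at the pore. Its probe read 2596, 2760.2, 1629.5 and 1988 in Tx replicates 1 to 4, against 2416, 2077, 2209.9 and 2547 in nonTx replicates 1 to 4. Tx replicate 2 held the highest reading and Tx replicate 3 the lowest. The difference was 0.09 ± 0.14 (95% interval -0.22 to 0.39; adjusted p = 0.788, limma), and it turned to -0.03 without Tx replicate 2.

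Dlat encodes the E2 subunit of pyruvate dehydrogenase, whose lipoyl domain is the main antigen of primary biliary cholangitis. Its brightest probe read 579, 431, 477 and 394 in Tx replicates 1 to 4, against 623, 455, 517 and 561 in nonTx replicates 1 to 4. The groups overlap both before and after scaling. The difference was -0.04 ± 0.11 (95% interval -0.28 to 0.20; adjusted p = 0.874, limma), and the other Dlat probe, with readings of 374 to 526 in Tx and 422 to 489 in nonTx, gave 0.14 ± 0.12 (-0.13 to 0.41). The probes differ in sign, and both intervals hold 0.

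Pdhx encodes the E3-binding protein of the same complex. Its brightest probe read 967, 941, 888 and 604 in Tx replicates 1 to 4, against 1028, 906, 1092 and 909 in nonTx replicates 1 to 4. Tx replicate 4 was the lowest array, and the other Tx readings lie close to the nonTx range. After scaling, the Tx values were 1.55, 1.91, 1.95 and 1.43, and the nonTx values 1.77, 1.72, 1.92 and 1.73. Tx replicates 1 and 4 then lay below every nonTx value and Tx replicate 3 above every one. The difference was -0.07 ± 0.13 (95% interval -0.36 to 0.21; adjusted p = 0.813, limma) with all arrays and 0.02 ± 0.12 without Tx replicate 4. A dimmer probe on another Pdhx transcript gave -0.12 ± 0.14 (-0.44 to 0.20).

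Chrm3 encodes the receptor through which acetylcholine triggers saliva and tear secretion, and antibodies to it are described in Sjögren's syndrome. Its 2 probes stayed in the background on all 8 arrays, so a Chrm3 transcript was not detectable in these livers. They read between 2.64 and 5.22 in Tx and between 2.49 and 4.53 in nonTx, where the lowest signal well above background on an array was between 12.2 and 16.1. No fold is given. Tx replicate 4, the array with the high Bpifa2 reading, read 3.64 and 3.24 on the Chrm3 probes, while a probe of Aqp5, the water channel of salivary acini, read 27.3 there and at most 3.30 on the other 7 arrays. A second Aqp5 probe read 3.40 on Tx replicate 4, in the background as on the other arrays.

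Sptan1 encodes alpha-fodrin, the nonerythroid alpha spectrin of the membrane skeleton, which is cut by calpains and caspases. Its brightest probe, on transcript variant 4, read 7175, 5419, 5198.5 and 5428 in Tx replicates 1 to 4, against 5794, 5370.1, 5710.3 and 5907 in nonTx replicates 1 to 4. These readings overlap, but after scaling the Tx values, 4.44, 4.44, 4.50 and 4.59, all lay above the nonTx values, 4.26, 4.28, 4.30 and 4.43. The difference was 0.17 ± 0.08 (95% interval 0.00 to 0.34; adjusted p = 0.373, limma). With quantile normalization it was 0.05, with normexp background correction 0.07, and without scaling 0.02. Of the dimmer probes, that on variant 3 gave 0.12 ± 0.21 (-0.34 to 0.59), that on another transcript gave -0.33 ± 0.20 (-0.77 to 0.11), and the remaining probe, at 3.39 to 6.89 in Tx and 2.62 to 7.31 in nonTx, stayed in the background. With the mean of the tested probes in place of the brightest, the Sptan1 difference was -0.01.

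**Figure D4:**
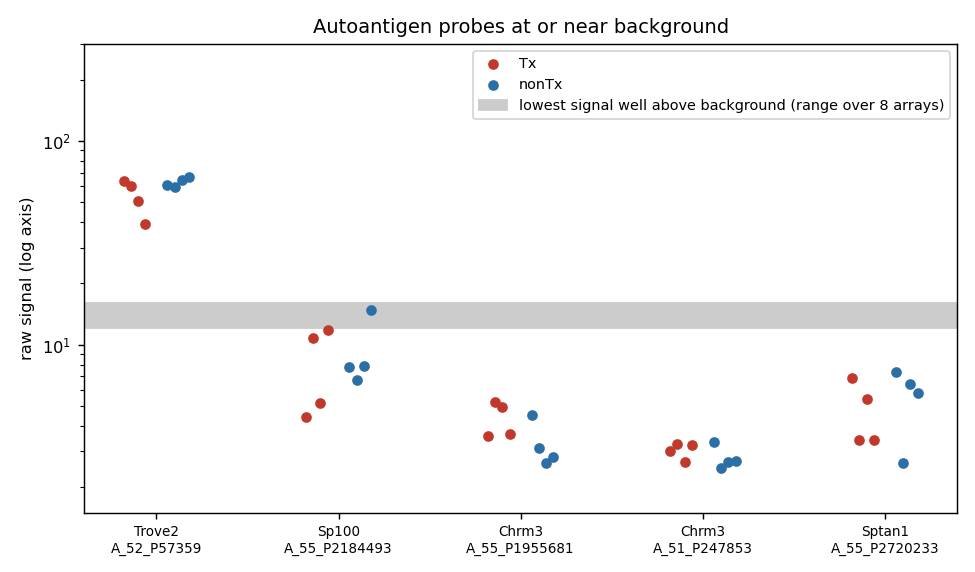
Readings of the 4 autoantigen probes that were not tested, and of the Trove2 probe for comparison, on a log axis of intensity, with points for the 4 Tx arrays left of those for the 4 nonTx arrays and a band for the lowest signal well above background, 12.2 to 16.1 over the 8 arrays. The Chrm3 points stay at or below 5.22.

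Partners of the antigens were described as lists of related genes, by counts and medians, with 0 calls in each list. Of 15 genes for Ro/La particles and spliceosomal small ribonucleoproteins, 9 were higher and 6 lower in Tx, with a median of 0.06. Calr, a calcium-binding chaperone described as a Ro-associated antigen, differed by 0.45 ± 0.13 (adjusted p = 0.291, limma) and Snrpb, a core Sm protein, by 0.23 ± 0.10 (adjusted p = 0.364). Of 28 nuclear pore genes, 16 were higher and 12 lower, with a median of 0.03. Nup85, of the pore scaffold, differed by 0.19 ± 0.08, with every Tx value above every nonTx value, and Tpr, of the nuclear basket, by -0.23 ± 0.10 (adjusted p = 0.357 and 0.366, limma).

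Of 18 genes of pyruvate dehydrogenase and its sister complexes, 11 were higher and 7 lower, with a median of 0.07. Ogdh, the E1 subunit of 2-oxoglutarate dehydrogenase, differed by 0.21 ± 0.08 (adjusted p = 0.333, limma), and by 0.08 ± 0.08 on its other probe. Pdp2, a phosphatase that activates pyruvate dehydrogenase, gave 1.41 ± 0.37 on its brightest probe (adjusted p = 0.283) and 0.11 ± 0.15 on its other probe. Of 11 nuclear body genes, 7 were higher and 4 lower, with a median of 0.18. Sp110, a relative of Sp100, gave 1.09 ± 0.29 on its brightest probe (adjusted p = 0.283, limma) but -0.24 ± 0.13 and -0.44 ± 0.21 on its others.

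Of 14 genes for muscarinic receptors and acetylcholine handling, 9 were tested, 2 higher and 7 lower, with a median of -0.18. With probes required to be well above background on all 8 arrays, 5 of these genes remained, with a median of -0.11. Chat, which makes acetylcholine, and Chrm4, another muscarinic receptor, were dim and were well above background on 3 of the 4 Tx arrays. Chat gave -0.98 ± 0.32 on its brightest probe (adjusted p = 0.313, limma) and 0.25 ± 0.18 on its other probe, and Chrm4 gave -1.07 ± 0.45 (adjusted p = 0.36). Of 17 tested genes for spectrins, their binding partners and proteases that cleave them, 12 were higher and 5 lower, with a median of 0.09. Sptbn4, a beta spectrin, differed by 0.36 ± 0.15 (adjusted p = 0.357, limma). Its dimmer probe gave 0.01 ± 0.28. Ank1, an ankyrin, was well above background on all 4 nonTx arrays and on 0 Tx arrays. It passed the detection filter through nonTx alone, so its difference is not read as a result. It is 1 of the 5 lower genes counted above. With the filter on all 8 arrays, which leaves Ank1 out, 16 genes remained, with a median of 0.095.

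Other antigens of autoimmune liver and connective tissue disease were set beside them. Of 14 tested antigens of autoimmune hepatitis, 13 were higher and 1 lower, with a median of 0.13, against 0.03 over all genes tested. The list median was 0.04 with quantile normalization and 0.03 with normexp background correction, so the size of this shift depends on the processing. Asgr2 and Asgr1, the subunits of the asialoglycoprotein receptor of hepatocytes, differed by 0.17 ± 0.07 and 0.21 ± 0.10 (adjusted p = 0.366 and 0.407, limma). Of 13 antigens among centromere, nuclear envelope and other nuclear proteins, 7 were higher and 6 lower, with a median of 0.07. Cenpc1, an inner centromere protein, differed by -0.29 ± 0.13 (adjusted p = 0.365, limma) on its brightest probe and by 0.26 ± 0.24 on its other probe. Exosc9, of the RNA exosome, gave 1.04 ± 0.28 on its brightest probe (adjusted p = 0.283) and -6.04e-05 ± 0.14 on its other probe.

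**Figure D5:**
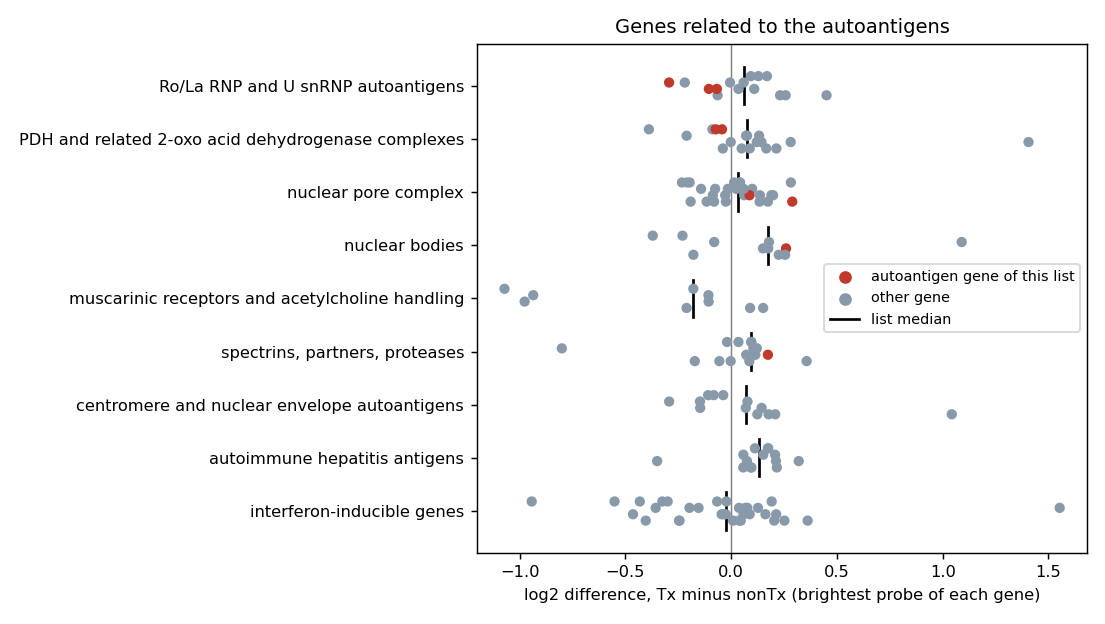
Log2 difference, Tx minus nonTx, of each tested gene of 9 lists of related genes, with the autoantigens in red, other genes in grey and a bar at each list's median. Medians lie between -0.18 for the muscarinic list and 0.18 for the nuclear body list, and the points farthest to the right are Trim25, Pdp2, Sp110 and Exosc9.

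Markers of other liver cells were measured beside the antigens, with 0 calls in each list. Bile duct markers, of which 6 of 9 were tested and Epcam and Cftr were among those that did not pass the detection filter, had 5 lower and 1 higher in Tx, with a median of -0.18 and summed signals of 2487 to 6910.1 in Tx and 3472 to 4227 in nonTx. Without Tx replicate 2 that median was 0.02. With the filter on all 8 arrays, 5 bile duct markers remained, with a median of -0.16. Kupffer cell and myeloid markers had 10 of 13 higher, with a median of 0.08 and sums of 40818 to 64283 in Tx and 47258 to 56799 in nonTx. B and plasma cell markers had 6 of 11 tested genes higher, with a median of 0.04 and sums of 36331 to 39338 in Tx and 37398 to 39548 in nonTx. Among them was Jchain, the joining chain of secreted antibodies, at 1.36 ± 0.22 (adjusted p = 0.102, limma). Endothelial and stellate markers had 6 of 13 higher, a median of -0.06 and sums of 36445 to 42717 in Tx and 36830 to 38819 in nonTx, and hepatocyte markers had 7 of 12 higher and a median of 0.01. The part of any of these cell types in the autoantigen values was not tested.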

How the data were processed

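The authors deposited the scanner files, whose intensity values were background-subtracted and spatially detrended per the file headers, by Agilent Feature Extraction 10.7.1.1 (9.1 in the submitters' processing notes), and a table with the same intensities, log2 values and a log2 difference column. Rebuilding showed that the authors' log2 values are scaled to the 75th percentile and centred per probe. Per the labels' protocols, labelled RNA was hybridised in 1 colour.

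Here, control spots were left out, outlier spots (54 to 120 per array) were set to missing, and spots of a probe were averaged. No spot was saturated. Log2 intensity minus each array's 75th percentile was compared between 4 Tx and 4 nonTx arrays by moderated linear models (limma 3.58.1 under R 4.3.3) with a trend in the variance and 6 residual degrees of freedom. P-values were adjusted after Benjamini-Hochberg over 30955 probes, with a threshold of 0.05. Testing needed a probe to be well above background on 3 or more arrays of a group and to have 2 or more values per group. A gene is its brightest tested probe. Errors after ± are standard errors unless given as SD. The R package data.table (1.17.8) was used for input. The number of arrays limits the precision. The fit was tested on simulated data.

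The members and lists were chosen with earlier results of these data known. All 10 members are named. From each list, up to 3 genes past the threshold were named, filled up to 2 by the smallest p; some of these are not reported here. Further named were the 5 genes most like Trim21 and Sp100, and, chosen after their values were seen, Bpifa2, Aqp5, Itgam, Cd4, Zap70, Cd247 and Cd3e. Promoters were read from a table of RefSeq promoters (GRCm38.p6), which held all 10 members. The file headers name another build, so no probe coordinates are given. Alternatives covered scaling, background correction, filters, variance models, array weights, a replicate block and each array left out.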

Additional observations from a re-analysis of the deposited data

Results flagged for a closer look

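The brightest Dlat probe stood out in Tx replicate 3. Its scaled log2 value was 1.05 there, while the other Tx arrays lay between 0.79 and 0.81, so that the gap was 0.91 of the group's range, above the Dixon limit for a group of 4 samples. The nonTx arrays ran from 0.72 to 1.05. This was 1 of 28 groups examined (14 probes in both groups), and chance alone marks about 1 in 20.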

How the results depend on the processing

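Calls among the autoantigen probes were 0 in all 22 alternatives. Over all probes, against 0 calls, there were 6 with scaling to the median, 4 with normexp, 5 with robust variance, 7 with array weights, and 1 each with the authors' log2 values, no variance trend, the replicate block and no scaling (added after the data were seen). With each array left out in turn the count ran from 0 to 188, the highest without Tx replicate 2. Trim21, Trove2, Sp100 and Nup62 kept their direction in all 22: Trim21 from -0.48 to -0.17 (adjusted p 0.21 to 0.704), Trove2 from -0.26 to -0.0029, Sp100 from 0.10 to 0.36 and Nup62 from 0.11 to 0.39. The sign turned for Ssb (0.033), Dlat (0.057) and Pdhx (0.028) with scaling to the median, for Dlat (0.050) and Sptan1 (-0.011) with the mean of a gene's probes, and for Nup210 (-0.071) without scaling. With 1 array left out it turned for Nup210 (range -0.034 to 0.18, lowest without Tx replicate 2), Pdhx (-0.15 to 0.022, highest without Tx replicate 4) and Dlat (-0.11 to 0.0017, highest without nonTx replicate 1). Scaling to the median and leaving scaling out change only the amount subtracted from each array's log2 values. Within such a setting the differences of all these genes moved by the same amount. The median of all probes was 0.12 with scaling to the median and -0.14 without scaling, against 0.02 here, so shifts of the size of most list medians depend on the scaling; the interferon-inducible median was 0.06 without Tx replicate 4. Replicate numbers did not pair the arrays: deviations of same-numbered arrays correlated at 0.0448, 0.0808, 0.0987 and -0.0109, and not every array was closest to its own number. A slide block was not run, since there was 1 slide.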

Other observations

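The brightest probes of Pdp2, Sp110, Trim25 and Exosc9, which belong to unrelated proteins, shared a pattern over the arrays that the other probes of the same genes did not show. Trim25, a ubiquitin ligase of antiviral signalling, had scaled log2 values of 7.22, 5.15, 7.36 and 6.60 in Tx replicates 1 to 4, against 5.11, 5.16, 4.58 and 5.26 in nonTx replicates 1 to 4. Pdp2 had 7.75, 5.91, 7.87 and 7.26 in Tx, against 5.76, 5.92, 5.39 and 6.10 in nonTx. Sp110 and Exosc9 likewise read high in Tx replicates 1, 3 and 4 and close to nonTx in Tx replicate 2. The differences on these probes were 1.55 ± 0.42 for Trim25, 1.41 ± 0.37 for Pdp2, 1.09 ± 0.29 for Sp110 and 1.04 ± 0.28 for Exosc9 (each adjusted p = 0.283, limma), while the other Trim25 probes gave 0.00 ± 0.11 and 0.12 ± 0.17. Trim30a, another interferon-inducible relative of Trim21, differed by -0.55 ± 0.17, with every Tx value below every nonTx value (adjusted p = 0.305), and by -0.11 ± 0.17 and -0.07 ± 0.19 on its other probes.

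The exocrine list had 5 tested genes, all with higher Tx means, a median of 0.35 and 0 calls. Its summed signal was 32967 to 160700 in Tx and 27200 to 32722 in nonTx, and without Tx replicate 4 its median was -0.03. Its named genes, the pancreatic enzymes Cela1 and Ctrb1, differed by 0.61 ± 0.20 and 0.35 ± 0.25 (adjusted p = 0.313 and 0.525, limma), and the other Cela1 probe gave -0.18 ± 0.32. Among the remaining markers by the same rule, S100a9 and Retnlg of neutrophils differed by 0.66 ± 0.23 and 0.90 ± 0.20, Cr2 of B cells by -0.45 ± 0.15, Ttr and Tat of hepatocytes by -0.37 ± 0.07 and 0.26 ± 0.19, Pdgfrb of stellate cells by -0.29 ± 0.11, Clec4g of sinusoidal endothelium by 0.17 ± 0.09, and Sox9 of bile ducts by -0.36 ± 0.25, with adjusted p-values between 0.185 and 0.52. Other probes gave 0.09 ± 0.10 for Ttr, -0.03 ± 0.24 for Cr2, -0.31 ± 0.20 for Clec4g and -0.18 ± 0.21 for Sox9. Itgam, a myeloid integrin of the same list as S100a9, differed by -1.52 ± 0.53 (adjusted p = 0.324).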
